A study of Mus musculus with 16 samples.

Results

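Dll4-Fc, a decoy that blocks signalling through the Notch ligand Dll4, was set against VEGF Trap, a decoy receptor that binds VEGF, in whole retinas of C57Bl6 mice. The comparison takes the arrays by their treatment label alone: 4 arrays labelled Dll4-Fc against 3 labelled VEGF Trap, which is 7 of the 16 arrays of the series, over all genes. The other arrays came from eyes given VEGF-A (5 arrays) or hFc, the Fc control protein (4 arrays), and their levels are quoted only as a description. The hFc arrays lay on a slide of their own, and 2350 to 2599 spots on each were flagged as outliers. On the arrays compared here that number was 12 to 165. Dll4-Fc pups were injected into the vitreous at 8 days of age with 4 µg, and every retina was taken 24 h after treatment. The protocol gives neither a dose nor an age for VEGF Trap, and the text on the study's design names neither this group nor this comparison. No allele or second agent is named for either group.

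Notch signalling passes between neighbouring cells: a ligand on one cell (Dll1, Dll4, Jag1, Jag2) binds a Notch receptor on the next, the receptor's inner part is cut free, and with the DNA-binding protein Rbpj it switches on repressors of the Hes and Hey families. In the growing retinal vasculature VEGF-A induces Dll4 in the leading tip cells, and Dll4 restrains sprouting in the cells behind them. In the neural retina Notch signalling holds progenitors back from becoming neurons and favours Müller glia, the main glial cell of the retina. Both treatments therefore touch the same vascular circuit at different steps.

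Each array compared the retina sample (Cy3) with one common pool of RNA from the whole experiment (Cy5), so a level here is the log2 ratio of sample over pool, and a difference is the Dll4-Fc mean minus the VEGF Trap mean, given ± its standard error from limma (n = 4 and 3). Between 87.1% and 91.0% of the spots on these 7 arrays were well above background. Across the genes tested, the Dll4-Fc arrays correlated with each other at r = 0.360 to 0.828 over 6 pairs, the VEGF Trap arrays at 0.628 to 0.721 over 3 pairs, and arrays of different groups at -0.121 to 0.301 over 12 pairs. The Dll4-Fc arrays all lay on 1 slide, and the VEGF Trap arrays on 2 others (arrays 1 and 2 together, array 3 apart), so slide and treatment cannot be told apart. Nothing in the labels ties a sample to an animal, so p-values measure only how far these samples spread, which may be technical. In bulk retina, fewer cells of a type and less RNA per cell cannot be told apart.

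Of 22722 genes tested, 2991 (13.2%) differed at an adjusted p of at most 0.05 (limma, Benjamini-Hochberg): 1778 (7.83%) were higher and 1213 (5.34%) lower with Dll4-Fc. Differences of at least 2-fold were mostly upward, with 318 genes higher and 90 lower. In 5703 genes (25.1%) the arrays of the groups did not overlap. The median difference over all genes was 0.01, the background for the list medians below. The largest rise was that of the neuropeptide gene Pmch, and 4 of the 15 largest rises were of genes on the interferon response list. The largest fall was that of Abca8a, and 3 of the 15 largest falls were of Müller glia genes. Leaving out 1 array moved the total to 1080 genes without VEGF Trap 1, 1540 without VEGF Trap 3, 1612 without Dll4-Fc 1, 1937 without Dll4-Fc 3 and 3557 without Dll4-Fc 2.

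**Figure D1:**
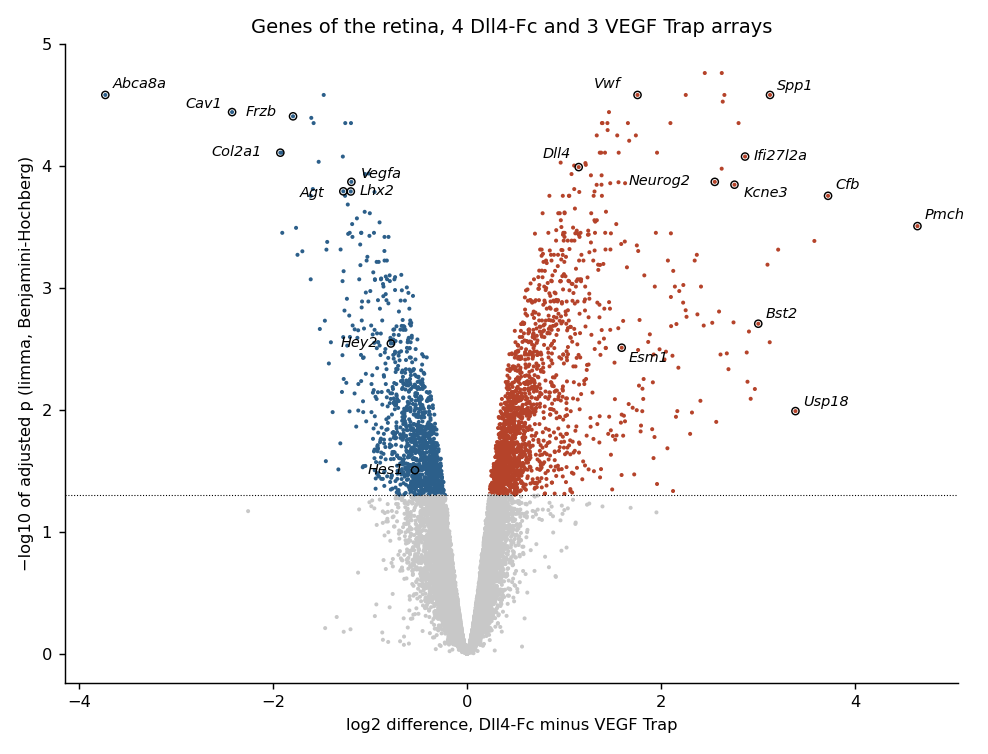
Each point is 1 of the 22722 genes: the horizontal axis is the log2 difference, Dll4-Fc minus VEGF Trap, and the vertical axis is minus log10 of the adjusted p (limma), with a dotted line at 0.05. Genes above the line number 1778 to the right and 1213 to the left, and the right side reaches further, apart from Abca8a at -3.73.

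Among the Notch genes, the ligands divided by kind and several classical targets fell. Dll4, the ligand whose outer part gives Dll4-Fc its name, was higher with Dll4-Fc: -0.25, -0.39, -0.32 and -0.44 on Dll4-Fc arrays 1 to 4, against -1.6, -1.49 and -1.41 on VEGF Trap arrays 1 to 3. All Dll4-Fc arrays lay above all VEGF Trap arrays, and the difference was 1.15 ± 0.079 (adjusted p = 0.000102), although other Dll4 probes gave 0.24 to 0.70. The gene lies at chr2:119325784-119335666 (GRCm38.p6).

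Dll3, a divergent ligand that acts inside the cell and marks cells leaving the progenitor pool, rose more: 1.03, 1.0, 1.11 and 0.68 on the Dll4-Fc arrays, against -0.93, -0.75 and -0.33 on the VEGF Trap arrays. The groups were apart on every array, and the difference was 1.62 ± 0.15 (adjusted p = 0.000415). Dll1, the ligand of newborn neurons, rose by 0.64 (adjusted p = 0.0101; adjusted p = 0.0599 without VEGF Trap 1, and 0.0946 in a fit over 12 arrays), Jag2 fell (difference -0.47, adjusted p = 0.00472, and 0.0555 in the Cy3 channel alone), and Jag1 stood at -0.015 (adjusted p = 0.97). Thus 3 of 5 ligand genes were higher and 1 lower. Of the 4 receptor genes, 1 passed: Notch4, the endothelial receptor, at 0.93 ± 0.097 (adjusted p = 0.00066). Notch1 stood at 0.44 (adjusted p = 0.169), with Dll4-Fc 4 as the highest array at 0.59 and Dll4-Fc 3 as the lowest of its group at -0.27.

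Of 12 effector genes, 5 fell and 1 rose, with a list median of -0.21. The promoters of Hes5 and Hey2, which fell and carry the binding letters of Rbpj, are shown, since Rbpj is the protein through which the pathway reaches its targets. They run from 250 bases before to 50 bases after the start of the gene (RefSeq, GRCm38.p6), and capitals mark GTGGGAA on either strand. Hes5 is at chr4:154960673-154960972 on the plus strand and Hey2 at chr10:30842734-30843033 on the minus strand.
Hes5: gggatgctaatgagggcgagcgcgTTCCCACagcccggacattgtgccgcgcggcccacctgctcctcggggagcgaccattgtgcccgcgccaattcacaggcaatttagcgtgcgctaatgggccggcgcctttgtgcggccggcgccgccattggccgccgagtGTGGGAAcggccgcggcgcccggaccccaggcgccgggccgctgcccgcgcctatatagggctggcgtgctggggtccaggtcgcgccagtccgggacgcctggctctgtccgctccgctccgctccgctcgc
Hey2: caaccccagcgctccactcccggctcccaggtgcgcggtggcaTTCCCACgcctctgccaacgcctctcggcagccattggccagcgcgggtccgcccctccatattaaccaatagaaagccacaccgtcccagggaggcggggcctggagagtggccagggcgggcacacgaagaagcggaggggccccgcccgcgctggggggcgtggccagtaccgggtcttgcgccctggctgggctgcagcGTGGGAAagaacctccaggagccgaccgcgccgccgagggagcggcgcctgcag
GTGGGAA stood in 3 of 8 effector promoter windows (37.5%), in Hes5, Hey2 and Lfng, against 6.4% of 32851 windows of all genes. Its shorter core TGGGAA, which lies inside it, stood in the same number of effector windows against 25.6% of all windows.

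Hes5, a repressor of neuronal fate, had -0.68, -0.67, -0.89 and -1.25 on Dll4-Fc arrays 1 to 4, against -0.26, -0.14 and -0.035 on VEGF Trap arrays 1 to 3. Every Dll4-Fc array was below every VEGF Trap array, with Dll4-Fc 4 lowest, and the difference was -0.73 ± 0.14 (adjusted p = 0.0126; adjusted p = 0.058 without VEGF Trap 3, 0.122 in the Cy3 channel alone and 0.0563 for the mean of its probes). Hey2, a repressor used in endothelium, fell alike: -0.59, -0.98, -0.54 and -0.62 on the Dll4-Fc arrays, against 0.17, 0.063 and 0.071 on the VEGF Trap arrays. The difference was -0.79 ± 0.11 (adjusted p = 0.00285). Hey1 fell by less, at -0.41 ± 0.074 (adjusted p = 0.00845). Hes1 stood at -0.54 (adjusted p = 0.0312), a call that was lost in most leave-one-out fits (adjusted p = 0.0541 to 0.112 without Dll4-Fc 3, Dll4-Fc 4, VEGF Trap 1, VEGF Trap 2 or VEGF Trap 3). Nrarp, a target that feeds back on the receptor, stood at -0.42 (adjusted p = 0.0274; adjusted p = 0.0662 to 0.119 without Dll4-Fc 3, VEGF Trap 1 or VEGF Trap 3).

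Hes6 ran the other way: 0.55, 0.53, 0.67 and 0.66 on the Dll4-Fc arrays, against -0.56, -0.36 and -0.035 on the VEGF Trap arrays. It is an inhibitor of Hes1 that neurogenic factors induce, and its groups did not overlap (difference 0.92 ± 0.12, adjusted p = 0.00198). Leaving out 1 array left 2 effector genes lower without VEGF Trap 3 and 3 without VEGF Trap 1 or Dll4-Fc 3. Heyl, Id3, Efnb2 and Lfng did not pass (differences 0.056, -0.29, -0.061 and 0.048). Of 16 modulators of the pathway, 1 rose, 1 fell and 14 did not pass, a share called near the 13.2% over all genes. Mfng, a sugar transferase that tunes receptors, rose (0.62 ± 0.077, adjusted p = 0.00168). Dtx3, related to the Deltex regulators, fell (-0.45, adjusted p = 0.0199, and 0.0613 to 0.0939 without Dll4-Fc 1, VEGF Trap 1 or VEGF Trap 3).

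The proneural factors, which Hes repressors hold down in progenitors, divided, with the largest differences upward. Neurog2, which drives progenitors towards a neuronal fate, had 1.46, 1.06, 1.63 and 1.85 on Dll4-Fc arrays 1 to 4, against -1.15, -1.24 and -0.76 on VEGF Trap arrays 1 to 3. The lowest Dll4-Fc array was thus far above the highest VEGF Trap array, and the difference of 2.55 ± 0.19 is 5.86-fold (adjusted p = 0.000134; chr3:127632733-127635636).

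Olig2, carried by late progenitors, rose as well: 0.93, 1.05, 1.23 and 0.78 on the Dll4-Fc arrays, against -0.73, -0.78 and -0.72 on the VEGF Trap arrays. The difference was 1.74 ± 0.10 (adjusted p = 5.59e-05), and the Cy3 channel alone gave 2.63. Atoh7, needed for ganglion cells, stood at 0.95 (adjusted p = 0.0216; adjusted p = 0.0747 to 0.106 without VEGF Trap 1 or VEGF Trap 3); another Atoh7 probe gave 0.27.

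The identity factors of progenitors and glia did not follow. Lhx2, which maintains progenitors and Müller glia, fell: -0.76, -0.75, -1.01 and -0.72 on the Dll4-Fc arrays, against 0.49, 0.34 and 0.33 on the VEGF Trap arrays. The difference was -1.2 ± 0.091 (adjusted p = 0.000161), with Dll4-Fc 3 the lowest array. Pax6 and Six6 stood at -0.54 and -0.62 (adjusted p = 0.0311 and 0.0345), calls that several leave-one-out fits lost (adjusted p = 0.05 to 0.131 without Dll4-Fc 2, VEGF Trap 1, VEGF Trap 2 or VEGF Trap 3 for Pax6; adjusted p = 0.055 to 0.147 without Dll4-Fc 2, Dll4-Fc 4, VEGF Trap 1 or VEGF Trap 3 for Six6). Rax, Sox2, Neurod1, Otx2 and Foxn4 lay between -0.12 and 0.16 and did not pass. In all, 4 of 15 tested genes of this list were higher, 3 lower and 8 not called, and the number lower was 1 without VEGF Trap 1 or without VEGF Trap 3.

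Müller glia genes fell as a group: of 18 tested, 12 were lower, 1 higher and 5 not called, with a median of -0.87 against 0.01 over all genes. The mean level of the list was -0.98, -1.08, -1.17 and -0.66 on Dll4-Fc arrays 1 to 4, against 0.08, 0.15 and -0.12 on VEGF Trap arrays 1 to 3. All Dll4-Fc arrays lay below all VEGF Trap arrays, with Dll4-Fc 4 nearest to them. The number lower ran from 8 to 15 as single arrays were left out.

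Abca8a, a membrane transporter of the ABC family, fell most of all genes in the comparison: -2.96, -3.12, -3.62 and -2.91 on Dll4-Fc arrays 1 to 4, against 0.71, 0.70 and 0.31 on VEGF Trap arrays 1 to 3. The groups were far apart, at -3.73 ± 0.18, a 13.2-fold lower level (adjusted p = 2.6e-05; chr11:110025634-110097580). A second probe gave -3.72, and the hFc arrays read 0.26 to 0.46, inside or near the VEGF Trap range. Its neighbour in the family, Abca8b, fell by less: -1.18, -1.13, -1.34 and -1.31 on the Dll4-Fc arrays, against 0.33, 0.48 and 0.21 on the VEGF Trap arrays. These 2 genes are related in sequence, so their probes may share signal.

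Cav1, the coat protein of caveolae, fell in the same way: -2.02, -2.39, -2.33 and -1.89 on the Dll4-Fc arrays, against 0.31, 0.28 and 0.21 on the VEGF Trap arrays. The difference was -2.42 ± 0.13 (adjusted p = 3.59e-05), and hFc arrays read 0.18 to 0.46. Gdpd2, a phosphodiesterase of glia, fell by less: -1.32, -1.21, -1.66 and -1.49 on the Dll4-Fc arrays, against 0.51, 0.64 and 0.31 on the VEGF Trap arrays. Its groups were apart, at -1.91 ± 0.12 (adjusted p = 7.74e-05).

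The working proteins of Müller glia fell too. Kcnj10, the channel that clears potassium, had -1.18, -1.38, -1.23 and -0.61 on the Dll4-Fc arrays, against 0.24, 0.66 and 0.20 on the VEGF Trap arrays. The difference was -1.47 ± 0.19 (adjusted p = 0.00185), and Dll4-Fc 4 was the highest of its group. Rlbp1, the retinaldehyde carrier of the visual cycle, differed by -1.13 ± 0.16 (adjusted p = 0.00256), Dkk3 by -0.92 ± 0.13, the carbonic anhydrase Car14 by -0.93 ± 0.12 and the transcription factor Sox9 by -0.70 ± 0.096, where other Sox9 probes gave -0.17 to -0.10 and the mean of the probes did not pass (adjusted p = 0.0767). The receptor Gpr37 stood at -0.83 (adjusted p = 0.00787; adjusted p = 0.0503 without VEGF Trap 1). For Glul, which makes glutamine, and Slc1a3, which takes up glutamate, Dll4-Fc 4 again stood nearest to VEGF Trap: -0.81, -0.91, -1.21 and 0.35 on the Dll4-Fc arrays, against 0.82, 0.86 and 0.36 on the VEGF Trap arrays for Glul. Their differences were -1.33 and -0.90 (adjusted p = 0.0307 and 0.0184; adjusted p = 0.0585 to 0.132 without Dll4-Fc 1, Dll4-Fc 3, VEGF Trap 1, VEGF Trap 2 or VEGF Trap 3 for Glul, and adjusted p = 0.0557 to 0.0851 without Dll4-Fc 1, VEGF Trap 1 or VEGF Trap 3 for Slc1a3).

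Not every Müller gene fell. Aqp4, Vim, Car2 and Sox2 had differences of -0.85, -0.19, -0.35 and -0.11 and did not pass with all 7 arrays. Without Dll4-Fc 4, 3 of them passed: Aqp4 (adjusted p = 0.0418), Vim (0.0314) and Car2 (0.0384). Crym, a thyroid hormone binding protein, stood at 0.50 (adjusted p = 0.033; adjusted p = 0.0635 to 0.13 without Dll4-Fc 1, Dll4-Fc 3, VEGF Trap 1, VEGF Trap 2 or VEGF Trap 3).

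**Figure D2:**
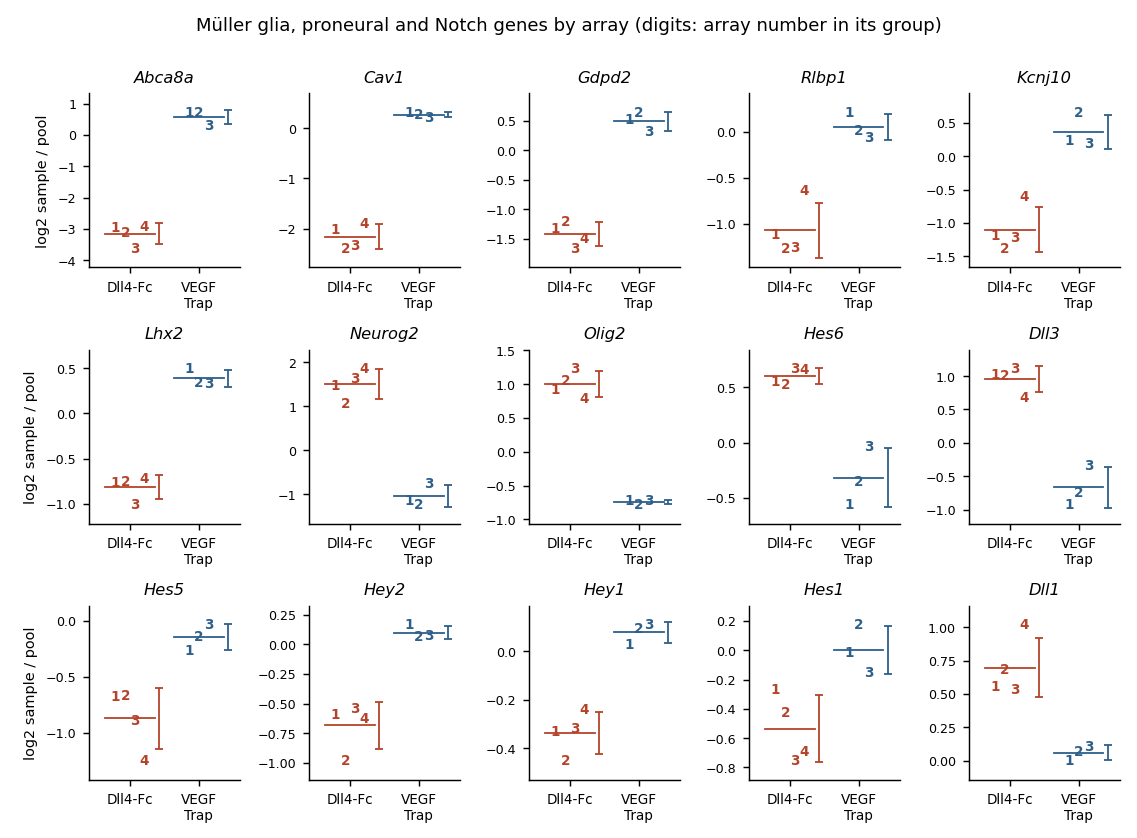
Levels of 15 Müller glia, proneural and Notch genes on each array, as log2 of sample over the common pool; digits are array numbers within a group, lines are means and bars are SDs, with Dll4-Fc left of VEGF Trap. Abca8a, Cav1, Gdpd2 and Lhx2 lie lower and Neurog2 and Olig2 higher with Dll4-Fc on every array, while Hes1 shows the groups close together.

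Among gliosis genes, which glia raise after injury, 7 of 18 were higher and 1 lower, a count that fell to 3 without VEGF Trap 1. Gfap, the intermediate filament of astrocytes and stressed Müller glia, had -0.39, -0.79, 0.026 and 0.15 on the Dll4-Fc arrays, against -1.5, -1.47 and -1.32 on the VEGF Trap arrays. The groups were apart at 1.18 ± 0.20 (adjusted p = 0.0074). Cebpd, a stress-induced transcription factor, rose by 0.63 ± 0.11 (adjusted p = 0.00664, and 0.0623 in a fit over 12 arrays). Nes, another filament gene, stood at 0.48 (adjusted p = 0.0131; adjusted p = 0.0705 without VEGF Trap 1), and Cd44, a hyaluronan receptor, at -0.76 (adjusted p = 0.0252; adjusted p = 0.0703 to 0.117 without Dll4-Fc 1, VEGF Trap 1 or VEGF Trap 2). Of 8 astrocyte genes, Gfap was higher and Aldoc lower, and 6 did not pass.

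Beyond the glial lists, further leading genes fell. Frzb, a secreted Wnt antagonist, had -1.39, -1.55, -1.59 and -1.32 on the Dll4-Fc arrays, against 0.41, 0.39 and 0.19 on the VEGF Trap arrays. The difference was -1.79 ± 0.095 (adjusted p = 3.89e-05), and hFc arrays read 0.043 to 0.35. Col2a1 (type II collagen), Entpd2 (an ectonucleotidase), Bmp3 and Pdlim3 (a muscle and cytoskeletal protein) fell by 3.79-, 2.78-, 2.89- and 3.06-fold. Hsd17b2, a steroid dehydrogenase, Krt19, a keratin, and Adamts19, a secreted protease, differed by -1.9, -1.7 and -1.52. For Muc2, Gipr and Gm2115 (differences -1.75, -1.61 and -1.6) other probes gave 0.05, -0.85 to -0.54, and 0.0032. The hFc arrays read -0.68 to -0.24 for Muc2 and -0.89 to -0.27 for Gipr, overlapping the Dll4-Fc arrays.

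On the VEGF side, Vegfa itself, the ligand that VEGF Trap binds, was lower with Dll4-Fc: -0.51, -0.62, -0.69 and -0.40 on Dll4-Fc arrays 1 to 4, against 0.68, 0.56 and 0.67 on VEGF Trap arrays 1 to 3. All Dll4-Fc arrays lay below all VEGF Trap arrays, at -1.19 ± 0.087 (adjusted p = 0.000134; chr17:46016993-46032377), and the hFc arrays lay between, at -0.31 to -0.20. Vegfa was the only one of 5 ligand genes called; Pgf stood at -0.24 (adjusted p = 0.339). Among 5 receptors and coreceptors, Flt1, the decoy-like receptor, stood at -0.62 (adjusted p = 0.0309), but other Flt1 probes gave -0.01 to 0.34 and the call was lost in most leave-one-out fits (adjusted p = 0.0502 to 0.124 without Dll4-Fc 1, Dll4-Fc 3, VEGF Trap 1, VEGF Trap 2 or VEGF Trap 3). Kdr, the main signalling receptor, stood at -0.33 (adjusted p = 0.285), with Dll4-Fc 4 at 0.04 above the other arrays of its group, and without that array at -0.51 (adjusted p = 0.0190). Nrp1 stood at 0.39 (adjusted p = 0.073) and at 0.50 without Dll4-Fc 2 (adjusted p = 0.00438).

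Pan-endothelial genes were higher with Dll4-Fc than with VEGF Trap: of 20 tested, 17 were higher and 2 lower. The arrays of the groups were apart in all 20, with a list median of 0.72. Mean levels of the list ran from -0.13 to -0.0082 on Dll4-Fc arrays and from -0.80 to -0.66 on VEGF Trap arrays, with -0.26 to -0.13 on hFc arrays. Among these groups the VEGF Trap arrays read lowest, but the hFc arrays lay on a separate slide. Which treatment moved the list was not tested. Vwf, the blood clotting protein stored in endothelium, led: 0.70, 0.53, 0.64 and 0.63 on Dll4-Fc arrays 1 to 4, against -1.21, -1.14 and -1.04 on VEGF Trap arrays 1 to 3. The difference was 1.76 ± 0.076 (adjusted p = 2.6e-05; chr6:125552948-125686679), a 3.38-fold higher level. The count of genes higher stayed between 14 and 17 as single arrays were left out. The letters CATTCC of a TEAD factor site stood in 4 of 14 promoter windows of the list (28.6%), against 14.7% of all windows. These windows belonged to 3 genes, Clec14a, Emcn and Erg, of which 2 were called. Promoters were available for only 10 of the 20 genes.

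Emcn, a sialomucin of veins and capillaries, had -0.72, -0.65, -0.65 and -0.55 on the Dll4-Fc arrays, against -2.37, -1.73 and -2.26 on the VEGF Trap arrays. Its difference was 1.48 ± 0.14 (adjusted p = 0.000482). Mmrn2, Icam2 and Tie1 followed with 1.28 ± 0.091, 1.25 ± 0.11 and 1.11 ± 0.10. Eng, a TGF-beta coreceptor, stood at 1.04 ± 0.14 and the junction proteins Cdh5, Cldn5 and Pecam1 at 0.89 ± 0.11, 0.73 ± 0.079 and 0.71 ± 0.091. For the transcription factor Erg (0.74) a second probe gave 0.21 and the Cy3 channel alone an adjusted p of 0.0815, and Clec14a did not pass (0.15, adjusted p = 0.233).

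The 2 exceptions were receptors. S1pr1, the sphingosine phosphate receptor, fell: -1.19, -1.37, -1.22 and -0.97 on the Dll4-Fc arrays, against -0.042, -0.23 and -0.21 on the VEGF Trap arrays. Calcrl, the receptor subunit for adrenomedullin and CGRP, fell by 1.16 ± 0.20 (adjusted p = 0.00732), while Ramp2, its partner subunit, rose by 0.86 ± 0.11 (adjusted p = 0.00184). Adm, their ligand, stood at -0.01 (adjusted p = 0.981).

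The tip cell and sprouting genes, which VEGF induces in leading cells, were mostly higher than with VEGF Trap. Of 17 tested, 10 were higher and 1 lower, with a median of 0.58. List means ran from -0.90 to -0.72 on Dll4-Fc arrays and from -1.63 to -1.41 on VEGF Trap arrays, with -1.24 to -0.78 on hFc arrays. Kcne3, a potassium channel subunit of tip cells, had -1.4, -1.51, -1.7 and -2.2 on the Dll4-Fc arrays, against -4.7, -4.56 and -4.11 on the VEGF Trap arrays. Both groups were far below the pool, and Dll4-Fc was higher by 2.75 ± 0.20 (6.75-fold, adjusted p = 0.000142). Esm1, secreted by tip cells, was lower still against the pool: -3.85, -4.31, -4.38 and -4.16 on the Dll4-Fc arrays, against -6.11, -6.04 and -5.16 on the VEGF Trap arrays. The difference was 1.59 ± 0.23 (adjusted p = 0.00308), with other probes at 0.27 to 1.34.

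Plaur, the urokinase receptor, and Robo4, a guidance receptor of vessels, rose by 1.41 ± 0.17 and 0.80 ± 0.084. Lama4, a basement membrane laminin, rose by 1.05 ± 0.082, though its other probes gave -0.03 to 0.96. Apln was the exception: -1.19, -1.71, -1.58 and -1.49 on the Dll4-Fc arrays, against -0.42, -0.61 and -0.19 on the VEGF Trap arrays. This ligand of tip cells fell by 1.08 ± 0.14 (adjusted p = 0.00184), and its receptor Aplnr, on veins, rose by 1.18 ± 0.12 (adjusted p = 0.000533). Angpt2 stood at 0.20 (adjusted p = 0.18). Of 20 VEGF-responsive genes, 9 were higher and 2 lower. Cd34, a sialomucin of sprouting endothelium, differed most among them: -0.60, -0.37, -0.52 and -0.17 on the Dll4-Fc arrays, against -1.81, -1.72 and -1.88 on the VEGF Trap arrays. The difference was 1.39 ± 0.11 (adjusted p = 0.000175). The lower ones were the secreted hormone Stc1 at -0.65 and the plasminogen activator Plat at -0.27 (adjusted p = 0.0276 and 0.0469), and neither was called without Dll4-Fc 1, VEGF Trap 1 or VEGF Trap 3.

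By vessel type, 5 of 11 arterial genes were higher and 1 lower, and 4 of 7 venous genes were higher and 1 lower. The arterial count fell to 1 without VEGF Trap 1, 2 without VEGF Trap 3 and 3 without Dll4-Fc 1, 2 or 3. Among venous genes, Tmem252 and Slc38a5 rose by 1.37 ± 0.087 and 0.91 ± 0.11, while the adhesion gene Vcam1 fell by 1.27 ± 0.21, with other probes at -1.11 to 0.01. Of 14 barrier genes, 5 rose and 2 fell, and 3 rose without VEGF Trap 1 or 3; none fell without Dll4-Fc 1, Dll4-Fc 3, VEGF Trap 1 or VEGF Trap 2, and 1 without VEGF Trap 3. Mfsd2a, the lipid transporter that limits transcytosis, rose: -0.011, 0.36, 0.025 and 0.22 on the Dll4-Fc arrays, against -0.72, -0.52 and -0.91 on the VEGF Trap arrays. Slc2a1, the glucose carrier, stood at -0.64 (adjusted p = 0.0295; adjusted p = 0.0661 to 0.129 without Dll4-Fc 1, Dll4-Fc 3, VEGF Trap 1, VEGF Trap 2 or VEGF Trap 3). In the Norrin and Wnt list, 4 of 14 rose and 2 fell, with 2 higher without VEGF Trap 1 or 3. Lef1, a transcription factor and target of Wnt signalling, stood at 0.86 (adjusted p = 0.0109; adjusted p = 0.0523 to 0.0672 without VEGF Trap 1 or VEGF Trap 3).

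Mural cells gave a divided list. Of 12 pericyte genes, 5 were higher and 3 lower, and the number higher was 3 without Dll4-Fc 1, VEGF Trap 1 or VEGF Trap 3. Kcnj8, a potassium channel subunit of pericytes, had 0.39, 0.52, 0.52 and 0.61 on the Dll4-Fc arrays, against -0.40, -0.20 and -0.30 on the VEGF Trap arrays. Higd1b rose too (1.02 ± 0.13), and both groups' arrays were apart in each. Ndufa4l2 went the other way: -0.10, -0.27, -0.54 and -0.32 on the Dll4-Fc arrays, against 0.85, 1.21 and 1.37 on the VEGF Trap arrays. This mitochondrial subunit, a known target of hypoxia signalling, fell by 1.45 ± 0.14 (adjusted p = 0.000483), and Cox4i2, a respiratory chain subunit, fell by 0.87 ± 0.096 (adjusted p = 0.000925) and by 1.3 in the Cy3 channel alone. Of 10 contractile genes, 3 rose, among them the filament gene Des (0.81 ± 0.092); 1 was called without Dll4-Fc 1, 2 or 3 or without VEGF Trap 1 or 3.

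In vessel tone, Agt, the angiotensin precursor made by glia, fell: -1.14, -0.92, -1.07 and -0.78 on the Dll4-Fc arrays, against 0.25, 0.35 and 0.29 on the VEGF Trap arrays. The groups were apart at -1.27 ± 0.097 (adjusted p = 0.000161), and among 11 vasoconstrictor genes it was the only one lower. The endothelin receptor gene Ednra was the only one higher (0.36, adjusted p = 0.0199), and it was not called without Dll4-Fc 3 or VEGF Trap 1, or in the Cy3 channel alone. The inducible nitric oxide synthase Nos2 rose by 0.59 ± 0.079, and by 0.91 in the scanner software's log ratios. Tgfb1, a growth factor of vessels, rose by 1.21 ± 0.14 (adjusted p = 0.00129), one of 5 higher and 2 lower among 15 genes of its list; no gene was lower without VEGF Trap 1, 2 or 3, and 1 without Dll4-Fc 3.

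The mitosis genes were nearly all higher than with VEGF Trap: 15 of 18 tested were higher and none lower, with a median of 0.76. The count was 14 or 15 as single arrays were left out. List means ran from -0.30 to -0.12 on Dll4-Fc arrays and from -0.99 to -0.82 on VEGF Trap arrays, with -0.74 to -0.33 on hFc arrays. Mki67, the proliferation marker, had 0.004, -0.15, -0.35 and -0.017 on Dll4-Fc arrays 1 to 4, against -1.67, -1.35 and -1.32 on VEGF Trap arrays 1 to 3. The difference was 1.32 ± 0.12 (adjusted p = 0.000352), a 2.49-fold higher level. Birc5 and Ube2c, both active in the division of chromosomes, rose by 1.18 ± 0.13 and 1.15 ± 0.12. Bub1, a checkpoint kinase, had -0.21, -0.18, -0.16 and -0.13 on the Dll4-Fc arrays, against -1.33, -1.16 and -1.04 on the VEGF Trap arrays. Ccnb1, the mitotic cyclin, rose by 0.99 ± 0.09. Plk1, Ccna2 and Bub1b stood at 0.27, -0.21 and -0.15 and did not pass.

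The promoter of Cdc20, the activator that starts anaphase, is shown because it carries the letters TTTGAA of the cell cycle homology region, an element of many mitotic genes; capitals mark it. It is at chr4:118437294-118437593 on the minus strand (RefSeq, GRCm38.p6).
Cdc20: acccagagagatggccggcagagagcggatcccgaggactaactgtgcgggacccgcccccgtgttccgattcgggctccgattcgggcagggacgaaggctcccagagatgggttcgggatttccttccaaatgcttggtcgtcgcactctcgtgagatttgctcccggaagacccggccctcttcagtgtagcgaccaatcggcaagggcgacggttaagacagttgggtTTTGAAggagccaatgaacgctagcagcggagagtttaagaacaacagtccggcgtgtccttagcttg
Cdc20 rose by 0.99 ± 0.11 (adjusted p = 0.00103). TTTGAA stood in 11 of 15 mitosis promoter windows (73.3%), against 17.9% of all windows. Of the 11 genes with it, 9 were called. Replication genes rose less uniformly: 10 of 18 were higher and none lower, with 4 without VEGF Trap 1. Rrm2, a subunit of the enzyme that makes DNA's building blocks, rose by 0.86 ± 0.10, and Mcm3, of the replication helicase, stood at 0.97 (adjusted p = 0.00836; adjusted p = 0.0542 without VEGF Trap 1). Of the cell cycle inhibitor and p53 genes, 5 of 12 were higher and none lower, with 3 without Dll4-Fc 1 or VEGF Trap 1. Cdkn1c, which stops the cycle, had 0.63, 0.37, 0.71 and 1.33 on the Dll4-Fc arrays, against -0.55, -0.54 and -0.30 on the VEGF Trap arrays. Cdkn1a, the target of p53, rose by 1.03 ± 0.17.

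Glycolysis genes, which turn glucose into pyruvate, went down: 14 of 19 were lower, none higher, and all 19 differences were negative, with a median of -0.47. Mean levels of the list ran from -0.53 to -0.32 on Dll4-Fc arrays and from 0.06 to 0.11 on VEGF Trap arrays, with -0.65 to -0.47 on hFc arrays. Among these groups the VEGF Trap arrays read highest, again with the hFc arrays on a separate slide. The number lower was 7 without VEGF Trap 1 and 9 without VEGF Trap 3.

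The promoter of Aldoc, the glial aldolase, carries the core letters ACGTG of the hypoxia response element, on the minus strand as CACGT, and capitals mark them; it is at chr11:78322823-78323122 (RefSeq, GRCm38.p6, plus strand).
Aldoc: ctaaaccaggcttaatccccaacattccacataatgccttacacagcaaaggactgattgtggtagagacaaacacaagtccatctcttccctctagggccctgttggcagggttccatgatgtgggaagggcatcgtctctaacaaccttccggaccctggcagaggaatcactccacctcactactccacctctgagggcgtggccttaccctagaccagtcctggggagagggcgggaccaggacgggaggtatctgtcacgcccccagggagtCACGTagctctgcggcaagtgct
ACGTG stood in 14 of 28 glycolysis windows (50%) and 11 of 19 hypoxia windows (57.9%), against 19.6% of all windows. These windows belonged to 12 glycolysis genes, of which 7 were called, and 11 hypoxia genes, of which 5 were called. Aldoc had -0.83, -0.90, -0.96 and -0.73 on Dll4-Fc arrays 1 to 4, against 0.018, 0.045 and -0.075 on VEGF Trap arrays 1 to 3. The difference was -0.85 ± 0.078 (adjusted p = 0.00038). Pfkp, a rate-limiting phosphofructokinase, had 0.029, 0.26, -0.14 and -0.016 on the Dll4-Fc arrays, against 0.78, 0.71 and 0.98 on the VEGF Trap arrays. It fell by 0.79 ± 0.11 (adjusted p = 0.00256), and hexokinase Hk2 differed by -0.66 ± 0.12. The lactate exporter Slc16a3 fell by 0.51 ± 0.086 (adjusted p = 0.00673) with an adjusted p of 0.132 in the Cy3 channel alone. Pgk1 and Pdk1 stood at -0.31 and -0.53 (adjusted p = 0.0358 and 0.0221; adjusted p = 0.0502 to 0.133 without Dll4-Fc 1, Dll4-Fc 3, VEGF Trap 1, VEGF Trap 2 or VEGF Trap 3 for Pgk1, and adjusted p = 0.0736 to 0.0886 without VEGF Trap 1 or VEGF Trap 3 for Pdk1). Gapdh, Pkm, Ldha and Pgam1 did not pass (-0.22, -0.18, -0.37 and -0.37), though Ldha passed without VEGF Trap 3 (adjusted p = 0.0465) and Pgam1, measured on 2 of 3 VEGF Trap arrays, without Dll4-Fc 4 (adjusted p = 0.0352).

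Of 17 hypoxia genes, 6 were lower and none higher, and 2 were lower without VEGF Trap 1 or 3. Besides Vegfa, P4ha2, a collagen hydroxylase, fell by 0.59 ± 0.088 (adjusted p = 0.0037, and 0.0640 in the Cy3 channel alone). Bnip3 stood at -0.55 (adjusted p = 0.0203; adjusted p = 0.0819 to 0.0948 without VEGF Trap 1 or VEGF Trap 3) and Egln1, the oxygen sensor (measured on 3 of 4 Dll4-Fc arrays), at -0.61 (adjusted p = 0.0293; adjusted p = 0.0537 to 0.0972 without Dll4-Fc 3, Dll4-Fc 4, VEGF Trap 1, VEGF Trap 2 or VEGF Trap 3).

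**Figure D3:**
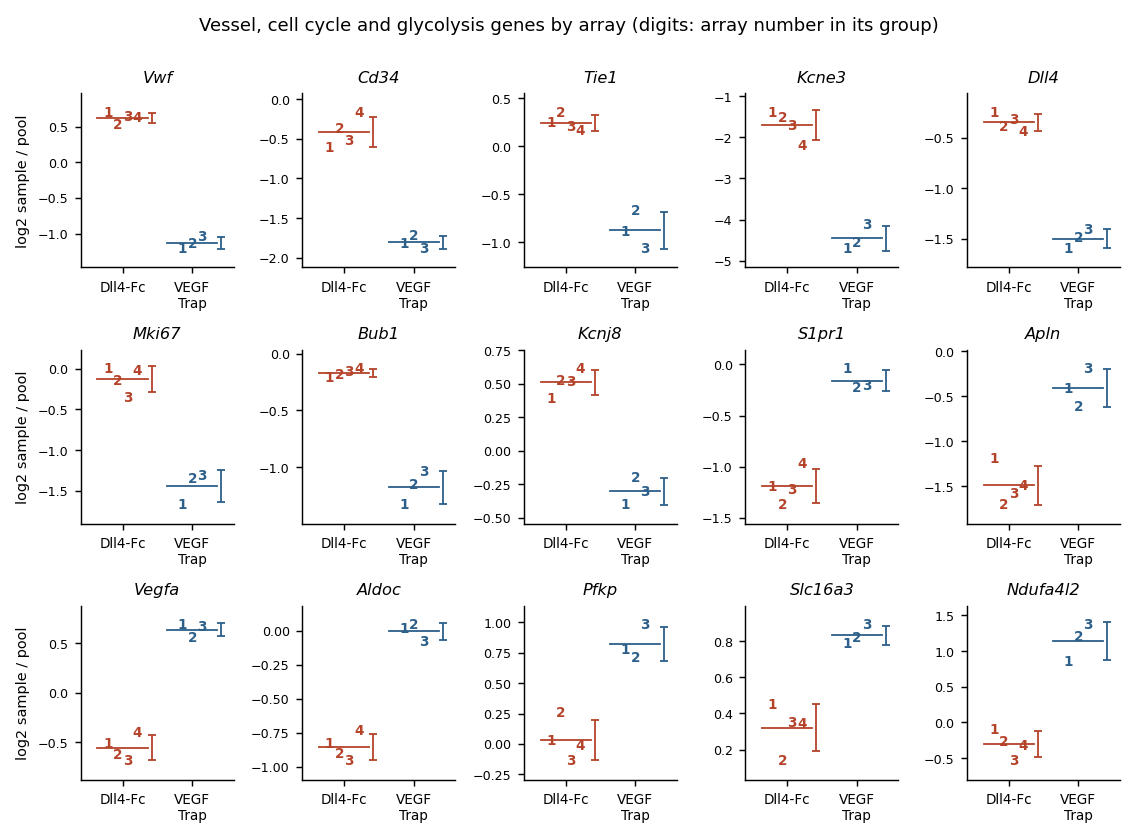
Levels of 15 vessel, cell cycle, hypoxia and glycolysis genes on each array, as log2 of sample over the common pool; digits are array numbers within a group, lines are means and bars are SDs, with Dll4-Fc left of VEGF Trap. Vwf, Cd34, Tie1 and Mki67 lie higher and S1pr1, Apln, Vegfa and Aldoc lower with Dll4-Fc on every array.

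The interferon response genes had the highest median of the lists: 18 of 26 tested were higher, none lower, and all 26 differences were positive, with a median of 1.76. The list mean was 0.58, 1.12, 1.81 and 0.25 on Dll4-Fc arrays 1 to 4, against -0.91, -0.80 and -0.72 on VEGF Trap arrays 1 to 3. Dll4-Fc 3 was the highest array and Dll4-Fc 4 the lowest of its group. The hFc arrays, from -1.12 to -0.70, overlapped the VEGF Trap arrays. The count was 8 without VEGF Trap 1.

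Isg15, a ubiquitin-like protein, and Bst2, the tetherin that holds virus particles at the cell surface, are shown with their promoters, since both hold the letters of the interferon-stimulated response element (GAAA, any 2 bases, then GAAA, on either strand; in capitals, where overlapping copies run together). Isg15 is at chr4:156200769-156201068 and Bst2 at chr8:71537423-71537722, both on the minus strand (RefSeq, GRCm38.p6).
Isg15: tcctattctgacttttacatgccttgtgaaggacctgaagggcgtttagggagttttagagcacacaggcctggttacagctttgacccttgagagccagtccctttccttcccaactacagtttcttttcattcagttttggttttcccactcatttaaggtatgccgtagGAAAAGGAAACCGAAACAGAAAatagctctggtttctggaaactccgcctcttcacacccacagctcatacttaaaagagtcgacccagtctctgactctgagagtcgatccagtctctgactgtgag
Bst2: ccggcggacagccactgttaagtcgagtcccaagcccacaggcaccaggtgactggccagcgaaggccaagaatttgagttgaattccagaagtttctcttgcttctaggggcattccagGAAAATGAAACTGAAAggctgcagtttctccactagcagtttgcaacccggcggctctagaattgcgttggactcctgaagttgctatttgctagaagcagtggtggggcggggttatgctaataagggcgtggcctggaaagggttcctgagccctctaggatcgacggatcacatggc
The element stood in 12 of 21 interferon list windows (57.1%), against 3.4% of all windows. Of the 12 genes with it, 8 were called. The gamma-activated site TTCNNNGAA stood in 4 of 21 (19%), against 8.3% of all windows, and 2 of its 4 genes were called.

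Isg15 had 0.89, 1.55, 2.22 and 0.21 on Dll4-Fc arrays 1 to 4, against -1.57, -1.37 and -1.43 on VEGF Trap arrays 1 to 3. The groups were apart by 2.68 ± 0.39 (adjusted p = 0.00343). Bst2 had 0.97, 1.98, 2.19 and 0.51 on the Dll4-Fc arrays, against -2.0, -1.42 and -1.34 on the VEGF Trap arrays. It rose by 3.0 ± 0.39 (adjusted p = 0.00196), and arrays 2 and 3 were the highest of the Dll4-Fc group. Rtp4 rose by 2.9 ± 0.39, the antiviral synthetase Oas1a by 2.23 ± 0.27, the nucleic acid sensor Zbp1 by 1.98 ± 0.28 and the GTPase Gbp3 by 1.77 ± 0.29. Usp18, the brake on interferon receptors, reached 3.38 (adjusted p = 0.0102; adjusted p = 0.0647 without VEGF Trap 1). Its values were 0.45, 2.27, 2.54 and -0.24 on the Dll4-Fc arrays, against -2.53, -2.2 and -1.66 on the VEGF Trap arrays. Ifi27l2a had 1.61, 1.24, 1.99 and 1.4 on the Dll4-Fc arrays, against -1.62, -1.24 and -1.05 on the VEGF Trap arrays. It rose by 2.86 ± 0.19 (adjusted p = 8.33e-05).

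Irf7, Rsad2, Iigp1 and Gbp2 stood at 1.92, 2.3, 2.17 and 1.75. Their calls were lost without 1 array: for Irf7 adjusted p = 0.0537 to 0.107 without Dll4-Fc 1, VEGF Trap 1 or VEGF Trap 3, for Rsad2 adjusted p = 0.0559 to 0.0827 without VEGF Trap 1 or VEGF Trap 3, for Iigp1 adjusted p = 0.0624 without VEGF Trap 1 and for Gbp2 adjusted p = 0.0548 without VEGF Trap 1. Cxcl10, an interferon-induced chemokine, did not pass (1.95, adjusted p = 0.0692); its adjusted p was 0.0290 without Dll4-Fc 2 and 0.00722 without Dll4-Fc 3. Ifi204, an interferon-inducible DNA sensor outside the list, rose by 3.21 ± 0.31 (adjusted p = 0.000483). Of 8 tested interferon and receptor genes, only Ifngr2 was called (0.42, adjusted p = 0.0358; adjusted p = 0.0508 to 0.129 without Dll4-Fc 1, Dll4-Fc 3, VEGF Trap 1, VEGF Trap 2 or VEGF Trap 3).

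Of 15 antigen presentation genes, 12 were higher and none lower, with a median of 1.27, and 6 without VEGF Trap 1. Cd74, the chaperone of class II molecules, had 1.95, 0.57, 1.53 and 1.5 on the Dll4-Fc arrays, against -0.98, -0.95 and -1.14 on the VEGF Trap arrays. It rose by 2.41 ± 0.27 (adjusted p = 0.000971), with Dll4-Fc 2 as the lowest of its group. H2-K1, a class I molecule, rose by 1.61 ± 0.21, and the immunoproteasome genes Psmb8 and Psmb9 by 1.88 ± 0.25 and 1.76 ± 0.25. Tap1, the peptide transporter, stood at 1.27 (adjusted p = 0.0116; adjusted p = 0.0681 without VEGF Trap 1).

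Among 16 complement genes, 9 were higher and none lower, with a median of 0.68. Cfb, factor B of the alternative pathway, had 1.87, 0.81, 2.16 and 1.14 on Dll4-Fc arrays 1 to 4, against -2.4, -2.09 and -2.18 on VEGF Trap arrays 1 to 3. The difference was 3.72 ± 0.29, 13.2-fold (adjusted p = 0.000175; chr17:34856374-34862514). Serping1, the C1 inhibitor, had 0.95, 0.92, 1.24 and 0.97 on the Dll4-Fc arrays, against -0.60, -0.51 and -0.46 on the VEGF Trap arrays. It rose by 1.55 ± 0.094 (adjusted p = 5.59e-05), and the C1q subunits C1qa, C1qb and C1qc by 0.64 ± 0.10, 0.77 ± 0.12 and 0.72 ± 0.10. The receptor C3ar1 rose by 1.17 ± 0.17.

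Of 13 chemokine genes, 6 were higher and 1 lower. Ccl12, a monocyte attractant, had 0.78, 1.3, 2.12 and 0.60 on the Dll4-Fc arrays, against -1.66, -1.29 and -1.24 on the VEGF Trap arrays. It rose by 2.6 ± 0.32 (adjusted p = 0.00156). Ccl2, its relative, had -0.10, -0.16, 1.86 and -0.22 on the Dll4-Fc arrays, against -2.92, -2.48 and -2.24 on the VEGF Trap arrays. Only Dll4-Fc 3 lay above the pool, and every Dll4-Fc array lay above the VEGF Trap arrays (difference 2.89 ± 0.47, adjusted p = 0.00586). Cxcl16 fell: -0.56, -0.66, -0.42 and -0.17 on the Dll4-Fc arrays, against 0.60, 0.66 and 0.43 on the VEGF Trap arrays. The difference was -1.02 ± 0.12 (adjusted p = 0.00129). The letters of an NF-kB site (GGGGA, any base, then TTCC, on either strand) stood in 1 of 10 chemokine windows (10%), against 0.4% of all windows. That window was of Cxcl10, which did not pass, so no called chemokine gene carried them.

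Microglia and macrophage genes rose: 15 of 19 tested were higher and none lower, with a median of 0.74 and 10 to 16 as single arrays were left out. Spp1, the cytokine osteopontin, had 1.78, 1.41, 1.82 and 1.45 on Dll4-Fc arrays 1 to 4, against -1.73, -1.2 and -1.58 on VEGF Trap arrays 1 to 3. Its groups were apart by 3.12 ± 0.15 (adjusted p = 2.6e-05). Aif1, the macrophage protein Iba1, had 0.83, 0.79, 1.14 and 0.88 on the Dll4-Fc arrays, against -0.56, -0.49 and -0.37 on the VEGF Trap arrays. It rose by 1.39 ± 0.099 (adjusted p = 0.000119). Fcgr1 and Fcer1g, parts of antibody receptors, rose by 2.1 ± 0.19 and 1.05 ± 0.12, and the microglial genes Tmem119 and Cx3cr1 by 0.82 ± 0.10 and 0.73 ± 0.11. P2ry12 and Csf1r, both microglial, did not pass (-0.10 and 0.24). Cd68 stood at 0.54 (adjusted p = 0.0585), and at 0.68 without Dll4-Fc 4 (adjusted p = 0.0112). Gpnmb did not pass, with VEGF Trap 2 at 2.26 far above every other array. Lyz2, Ptprc and Ctss stood at 1.52, 1.48 and 1.02 (adjusted p = 0.0548 without VEGF Trap 1 for Lyz2, adjusted p = 0.0516 to 0.0708 without VEGF Trap 1 or VEGF Trap 3 for Ptprc and adjusted p = 0.0557 without VEGF Trap 1 for Ctss). The part of these cells in the interferon, antigen presentation and complement results was not tested.

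A set of leading genes was lowest on Dll4-Fc 2 among the Dll4-Fc arrays. Plac8, a protein of leukocytes, had 1.69, 0.074, 2.35 and 1.13 on the Dll4-Fc arrays, against -1.9, -1.71 and -1.81 on the VEGF Trap arrays. Hp, the haemoglobin-binding protein, and Apoc2, an apolipoprotein, followed that order: 1.92, -0.026, 1.92 and 1.39 on the Dll4-Fc arrays, against -1.41, -1.74 and -1.58 on the VEGF Trap arrays for Hp, and 1.82, 0.31, 1.71 and 1.44 on the Dll4-Fc arrays, against -1.81, -1.84 and -1.66 on the VEGF Trap arrays for Apoc2. All stayed above the VEGF Trap arrays, by 3.12 ± 0.44, 2.88 ± 0.42 and 3.1 ± 0.32. Of 8 neutrophil genes, 2 were higher: S100a9 and S100a8 stood at 2.32 and 1.08 (adjusted p = 0.063 without VEGF Trap 1 for S100a9 and adjusted p = 0.0785 to 0.176 without Dll4-Fc 1, Dll4-Fc 3, Dll4-Fc 4, VEGF Trap 1, VEGF Trap 2 or VEGF Trap 3 for S100a8). Of 10 T, B and NK cell genes, 2 were higher, with 1 without Dll4-Fc 2 or 4 and none without any 1 of the other arrays. Of 17 acute inflammation genes, 5 were higher and 2 lower; 1 to 3 were higher without any 1 array other than Dll4-Fc 2, and 1 was lower without Dll4-Fc 1, Dll4-Fc 3, VEGF Trap 1 or VEGF Trap 2. Lcn2 and Saa3 stood at 2.12 and 1.1 (adjusted p = 0.0908 to 0.145 without Dll4-Fc 1, Dll4-Fc 3, Dll4-Fc 4, VEGF Trap 1, VEGF Trap 2 or VEGF Trap 3 for Lcn2 and adjusted p = 0.06 to 0.135 without Dll4-Fc 1, Dll4-Fc 3, Dll4-Fc 4, VEGF Trap 1, VEGF Trap 2 or VEGF Trap 3 for Saa3).

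**Figure D4:**
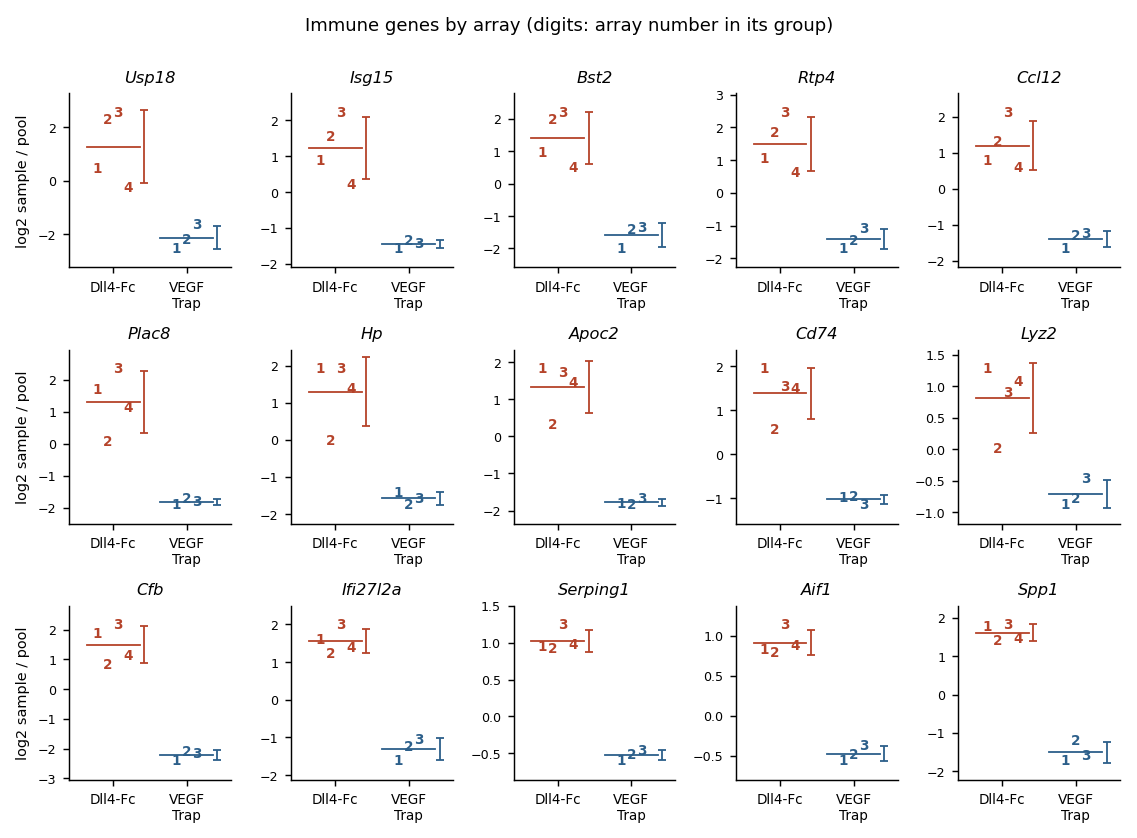
Levels of 15 interferon, complement, chemokine and macrophage genes on each array, as log2 of sample over the common pool; digits are array numbers within a group, lines are means and bars are SDs, with Dll4-Fc left of VEGF Trap. Usp18, Isg15, Bst2 and Rtp4 are highest on Dll4-Fc 2 and 3, and Plac8, Hp, Apoc2 and Cd74 are lowest on Dll4-Fc 2.

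Neuropeptide genes divided, 4 of 12 higher and 2 lower. Pmch, the precursor of melanin-concentrating hormone, had the largest rise of the comparison: 1.99, 2.43, 1.96 and 0.54 on Dll4-Fc arrays 1 to 4, against -3.1, -3.2 and -2.43 on VEGF Trap arrays 1 to 3. The difference was 4.64 ± 0.40 (adjusted p = 0.00031; chr10:88091072-88092374), with Dll4-Fc 4 lowest in its group, and a second probe gave 0.65. Nts, the neurotensin precursor, had 1.4, 1.59, 1.59 and 0.51 on the Dll4-Fc arrays, against -1.66, -1.54 and -0.56 on the VEGF Trap arrays. It rose by 2.53 ± 0.32 (adjusted p = 0.00193). Sst (somatostatin) rose by 0.48 ± 0.079, with an adjusted p of 0.326 in a fit over 12 arrays, and Pdyn (dynorphin) fell by 0.61 ± 0.086. Tac1 and Calca stood at 0.39 and -0.49 (adjusted p = 0.0398 and 0.0281; adjusted p = 0.0623 to 0.152 without Dll4-Fc 1, Dll4-Fc 3, Dll4-Fc 4, VEGF Trap 1 or VEGF Trap 3 for Tac1 and adjusted p = 0.0676 to 0.099 without Dll4-Fc 1, Dll4-Fc 3, VEGF Trap 2 or VEGF Trap 3 for Calca). Vxn, a proneural cofactor in frog embryos, had 1.66, 1.69, 1.85 and 0.73 on the Dll4-Fc arrays, against -2.36, -2.58 and -1.35 on the VEGF Trap arrays; it rose by 3.58 ± 0.33. For Tgtp1 and Ms4a4c (2.96 and 2.92) other probes gave 0.53, and -0.06 to 1.54.

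Among neuron markers, 1 each was called of 13 rod, 10 cone, 13 bipolar, 15 amacrine and horizontal and 14 ganglion cell genes. The call was higher for cones and lower for the others. Over all genes 13.2% were called, and lists this small cannot tell their counts from that share. As 1 array was left out, the number of bipolar genes lower stayed at 1. The other counts changed: 0 to 2 rod genes were lower, 0 to 2 cone genes higher, and 0 or 1 amacrine and horizontal and 0 or 1 ganglion cell genes lower. In the rod, bipolar, amacrine and horizontal and ganglion cell lists, 0 or 1 gene was called higher in these fits. Grm6, the glutamate receptor of ON bipolar cells, fell by 0.66 ± 0.11 (adjusted p = 0.00658). Of 7 tested erythroid genes, 4 were higher, with 1 without VEGF Trap 1 and 2 without VEGF Trap 3. The haem enzyme Alas2 had 0.26, -0.64, -0.23 and -0.45 on the Dll4-Fc arrays, against -1.38, -1.18 and -1.64 on the VEGF Trap arrays, rising by 1.14 ± 0.20 (adjusted p = 0.0082); their part in the vessel results was not tested. Lens genes, which come with lens tissue left on a retina, did not pass in any of 14 and had list means from -2.96 to 0.50 on Dll4-Fc arrays and from -2.18 to 1.77 on VEGF Trap arrays. Retinal pigment epithelium genes did not pass in any of 10. Their list means ran from -0.093 to 0.64 on Dll4-Fc arrays and from -0.44 to 0.93 on VEGF Trap arrays. VEGF Trap 2 had the highest mean of the compared arrays in the lens list and in this list.

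**Figure D5:**
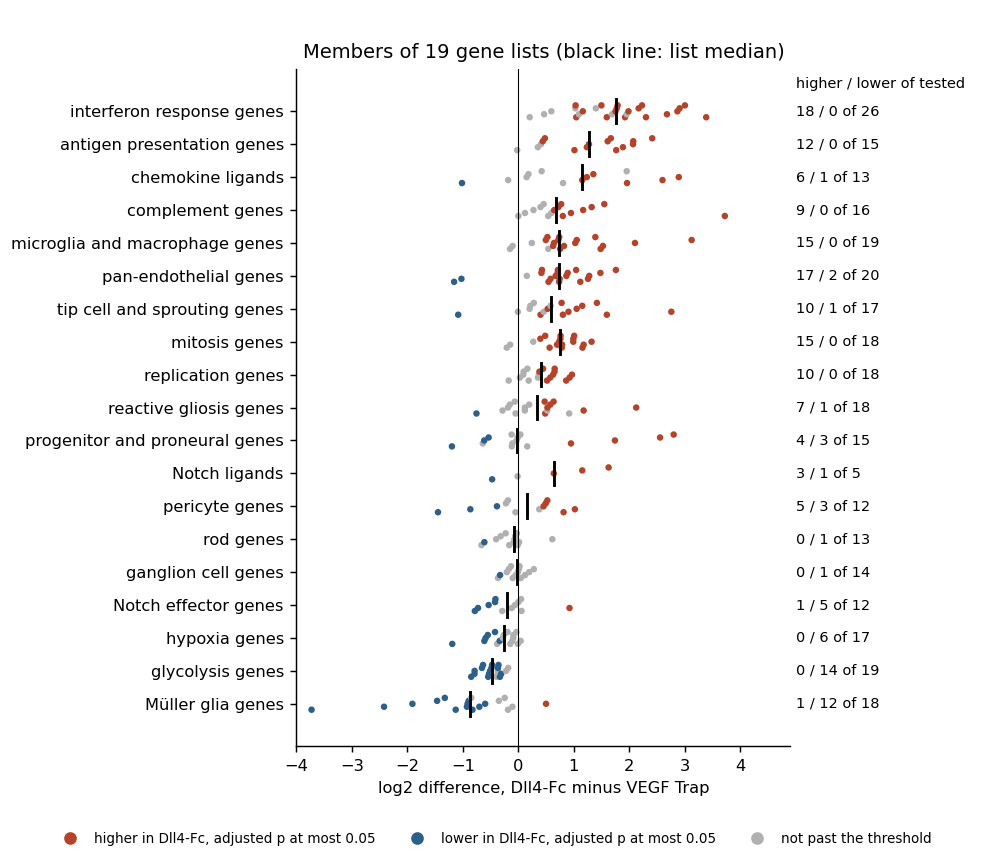
Each point is a tested gene of 1 of 19 lists, placed by its log2 difference, Dll4-Fc minus VEGF Trap; black lines are list medians, and the numbers give genes higher and lower of those tested. Interferon response, antigen presentation, mitosis and pan-endothelial genes lie to the right, and Müller glia and glycolysis genes to the left.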

How the data were processed

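Retina RNA from 16 samples was hybridised on two-colour Agilent arrays, each with the sample in Cy3 and a pool of the experiment's RNA in Cy5, with no dye swap. Spot intensities were deposited as scanner output of Agilent Feature Extraction 9.5.1.1, per the submitters' processing notes. The files also hold log10 ratios of red over green that the authors' scanner software computed, and a deposited value table in natural log ratios, which followed the scanner ratios, turned and rescaled, at r of at least 0.999 with 25.1% to 27.5% of entries empty.

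From the deposited mean and background intensities, log2 ratios of sample over pool were computed with normexp (offset 50) and loess in limma 3.58.1 (R 4.3.3). Control spots got weight 0 and were left out, outlier spots were dropped, spots of 1 probe were averaged, and probes were kept where at least 3 of the 7 arrays had Cy3 signal well above background, which left 38740 of 43426 probes. The brightest probe stood for a gene. Arrays were grouped by label, and lmFit and eBayes compared 4 Dll4-Fc with 3 VEGF Trap arrays, two-sided, Benjamini-Hochberg over 22722 genes at 0.05; their number limits the precision (median standard error 0.094). Names came from accessions and symbols matched to RefSeq (GRCm38.p6).

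The text names the 15 largest called differences each way whose arrays did not overlap, members of the lists described, and the study's own VEGF and Notch genes. These members and lists were chosen with earlier results of these data known, so their direction is no independent evidence. A few list members are counted but not reported here by name. In simulated data, 200 of 22462 genes were changed, with independent noise for each gene and no slide effect. There, 47% of differences of 0.5 and 85% of differences of 1 were recovered, and 6.38% of calls were false. The real comparison differs in these settings, so the simulation gives no false share for its calls. Alternatives covered the scanner's log ratios, Cy3 alone, the deposited table, background, filter, probe choice, arrays in the fit, slide, and single arrays left out. Duplicate replicate numbers pair nothing, since they follow accession order.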

Additional observations from a re-analysis of the deposited data

Results flagged for a closer look

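Of 267 groups of 4 Dll4-Fc arrays tested, over single genes and list means, 16 had 1 array far from the other 3 by Dixon's test. Chance alone gives about 1 in 20, a share close to the one found. Values are log2 levels of sample over pool.

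The array that stood apart was Dll4-Fc 2 for 7 of these. Gipr stood at 0.106 on this array, against -0.544 to -0.456 on the other Dll4-Fc arrays. Saa3 stood at 0.0906 on this array, against 1.17 to 1.25 on the other Dll4-Fc arrays. Pdk1 stood at -0.111 on this array, against 0.313 to 0.347 on the other Dll4-Fc arrays. Ldha stood at -1.32 on this array, against -1.08 to -1.05 on the other Dll4-Fc arrays. Timp1 stood at -0.483 on this array, against -0.299 to -0.272 on the other Dll4-Fc arrays. Stc1 stood at -0.712 on this array, against -0.21 to -0.126 on the other Dll4-Fc arrays. Ganglion cell genes stood at -0.0984 on this array, against 0.0419 to 0.0593 on the other Dll4-Fc arrays (a mean over the list).

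The array that stood apart was Dll4-Fc 3 for 4 of these. Ccl2 stood at 1.86 on this array, against -0.222 to -0.103 on the other Dll4-Fc arrays. Lhx2 stood at -1.01 on this array, against -0.76 to -0.723 on the other Dll4-Fc arrays. Serping1 stood at 1.24 on this array, against 0.922 to 0.972 on the other Dll4-Fc arrays. Ifit1 stood at 0.91 on this array, against 0.0555 to 0.192 on the other Dll4-Fc arrays.

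The array that stood apart was Dll4-Fc 4 for 5 of these. Vxn stood at 0.726 on this array, against 1.66 to 1.85 on the other Dll4-Fc arrays. Slc1a3 stood at -0.45 on this array, against -1.34 to -1.21 on the other Dll4-Fc arrays. Barrier endothelium genes stood at 0.21 on this array, against -0.0386 to -0.00852 on the other Dll4-Fc arrays (a mean over the list). Rod genes stood at -0.442 on this array, against -0.752 to -0.726 on the other Dll4-Fc arrays (a mean over the list). VEGF receptors and coreceptors stood at -0.0508 on this array, against -0.348 to -0.316 on the other Dll4-Fc arrays (a mean over the list).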

How the results depend on the processing

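No called gene named in the text turned its direction under any alternative run. No paired analysis was possible because replicate numbers follow accession order and pair no samples. As single arrays were left out, the genes called ran from 1080 to 3557, those higher from 701 to 1882 and those lower from 379 to 1740. The Cy3 channel alone gave 1705 called (1149 higher, 556 lower). With only the VEGF Trap arrays of slide 3 there were 1540 (957 and 583), and with only the array of slide 4, assumed to vary like the others, 405 (300 and 105). The other settings kept the total within 1.5 times, from 2138 with the scanner's log ratios to 3450 with all 16 arrays, and slide as a random block over 12 arrays gave 2851 (consensus correlation within slides 0.0049). That fit cannot separate a shift of the Dll4-Fc slide from treatment, since the slide holds no other group. The cause of the changes in these counts was not tested. Calls near the threshold, mostly of genes named with a second p above, were lost in some settings. With only the VEGF Trap array of slide 4, calls further from the threshold were lost too. Among them were those of Ifi204, Cd74, Hes6, Bst2 and Kcnj10, whose directions held. Slide and treatment cannot be told apart, and 7 arrays limit how small a difference can be called.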
